A study of Mus musculus with 100 samples.

Results

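The end of mouse chromosome 4 was examined gene by gene in the female iPSC line F KSR2, where reads of the maternal copy were almost absent. The members were all 344 genes of the deposited expression table (25965 genes) that lie on chromosome 4 and start past 140 Mb (GRCm38). They were chosen by the low maternal share and the low level of this stretch in F KSR2 seen in these data, so every comparison of F KSR2 with the other lines is given as a description, without a test. Of the 344 members, 140 had a mean above 2 on the log2 RPM scale (RPM, a gene's reads scaled by the library's total reads on genes, not divided by gene length) over the 15 pluripotent libraries. The other 204 were at or below it, and 52 of those had no read in any of the 18 libraries.

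The RNA-seq part of the study held 6 groups of 3 libraries each. The iPSC lines and the fibroblasts were F1 hybrids of an i4F-BL6 mother, which carries a doxycycline-inducible cassette of the Yamanaka factors, and a CAST father, so a maternal read carries BL6 variants and a paternal read CAST variants. F KSR2 and F KSR4 were female lines, and M KSR3 and M KSR5 male lines, reprogrammed with doxycycline in medium with Knockout Serum Replacement (KSR) and kept on feeder cells. Each iPSC line was grown from a picked colony, and the 3 libraries of a line show the spread within 1 clone and not between clones. Female MEFs were the unreprogrammed embryonic fibroblasts, and TX 2i ESCs were female BL6 and CAST hybrid embryonic stem cells kept in 2i medium, which were not reprogrammed and do not come from the same embryos. F KSR2 was set against the mean of the group means of F KSR4, M KSR3 and M KSR5, called the other KSR lines.

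Markers of pluripotent cells and fibroblasts went with the labels. The summed level of 9 pluripotency genes ranged from 4469 to 8932 RPM over the pluripotent groups and from 1.52 to 2.51 RPM in MEFs, with 4 of the 9 genes at 0 reads in all 3 MEF libraries. The summed level of 10 fibroblast genes was 20.2 to 65.0 RPM in F KSR2, 14.6 to 240.2 RPM in the other KSR lines (the highest in M KSR5 replicate 3) and 29772 to 41068 RPM in MEFs. Primitive endoderm genes were higher in M KSR3, a reference line, at 133 to 158 RPM summed over 5 genes, than in F KSR2 (17.9 to 53.3 RPM), F KSR4 (15.3 to 27.4 RPM) and M KSR5 (17.3 to 50.6 RPM), and their part in the results was not tested. Trophoblast genes summed to 92.5 to 228 RPM in F KSR2 and to 53.6 to 198 RPM in the other KSR lines. Libraries held 13183036 to 17921280 reads on genes, of which 2511175 to 3543420 carried a variant that assigns them to a parent. F KSR4 replicate 2 stood apart from the other KSR libraries: its median autosomal gene outside the chromosome end lay 0.26 below the mean of the other KSR lines on the log2 scale, against -0.08 to 0.10 for the remaining 8.

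An autosomal gene is normally expressed from both parental copies, and a cell with a single active copy usually makes less of the RNA in proportion, since most genes do not adjust to their copy number. In an F1 hybrid, the share of reads from each parent therefore shows which copy is used, and the total level shows whether the remaining copy is used more. The end of mouse chromosome 4 holds genes of central metabolism (Eno1, Pgd, Sdhb), the growth kinase Mtor, the cell death gene Casp9, the p53 relative Trp73, the transcriptional repressor Spen, and a cluster of zinc finger genes that are active in pluripotent cells. Cultured mouse pluripotent cells are known to gain and lose chromosome pieces, and losses escape a count of chromosomes when the chromosome number stays the same. No DNA of F KSR2 was measured here at these genes, and a missing copy and a silent copy cannot be told apart from RNA.

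Beside protein-coding genes, the stretch holds 10 miRNA hairpins in RefSeq (GRCm38.p6), among them Mir34a, a target of p53, and the Mir200b, Mir200a and Mir429 cluster, which is known for keeping cells epithelial. They are shown because they lie among the affected genes; their own levels were not measured here. Capitals mark the seed, bases 2 to 8. miR-200b-3p and miR-429-3p share a seed, while miR-200a-3p and miR-34a-5p each have another. On chromosome 4 the mature forms lie at 150068473-150068494 on the plus strand (miR-34a-5p) and, on the minus strand, at 156054911-156054932 (miR-200a-3p), 156055685-156055706 (miR-200b-3p) and 156053916-156053937 (miR-429-3p).
mmu-miR-34a-5p: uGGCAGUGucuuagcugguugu
mmu-miR-200a-3p: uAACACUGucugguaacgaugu
mmu-miR-200b-3p: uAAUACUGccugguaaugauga
mmu-miR-429-3p: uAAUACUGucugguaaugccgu

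Promoters are shown for examples of members with a high or a low level in F KSR2: Spen and Acap3, which lay highest relative to the other KSR lines among members with enough allelic reads for a share and outside the zinc finger cluster, and Klhl17, the lowest, and Pgd, the seventh lowest and the one with the most reads among the 9 members at or below -1.5. Each is the 250 bases before the gene's start in RefSeq (GRCm38.p6), 5′ to 3′ on the gene's strand, and capitals mark GGGCGG or its reverse complement CCGCCC, the core of the GC box that Sp1 and related factors bind. They span chr4:141538598-141538847 (Spen, minus strand), chr4:155891625-155891874 (Acap3, plus strand), chr4:156234858-156235107 (Klhl17, minus strand) and chr4:149166706-149166955 (Pgd, minus strand).
Spen promoter: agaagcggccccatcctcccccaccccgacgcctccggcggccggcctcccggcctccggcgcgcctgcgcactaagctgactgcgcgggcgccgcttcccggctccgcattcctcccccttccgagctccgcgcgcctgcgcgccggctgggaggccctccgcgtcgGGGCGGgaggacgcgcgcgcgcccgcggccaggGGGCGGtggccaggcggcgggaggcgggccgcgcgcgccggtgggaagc
Acap3 promoter: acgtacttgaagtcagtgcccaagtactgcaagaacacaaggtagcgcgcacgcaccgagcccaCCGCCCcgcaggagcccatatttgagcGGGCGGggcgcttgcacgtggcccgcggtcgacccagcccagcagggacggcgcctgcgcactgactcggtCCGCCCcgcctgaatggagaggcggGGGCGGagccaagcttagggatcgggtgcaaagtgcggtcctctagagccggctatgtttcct
Klhl17 promoter: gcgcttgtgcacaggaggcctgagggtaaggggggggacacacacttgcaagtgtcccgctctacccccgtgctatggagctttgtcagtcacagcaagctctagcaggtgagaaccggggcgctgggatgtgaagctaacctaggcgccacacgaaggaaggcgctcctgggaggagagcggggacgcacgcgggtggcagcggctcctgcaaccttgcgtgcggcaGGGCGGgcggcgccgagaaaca
Pgd promoter: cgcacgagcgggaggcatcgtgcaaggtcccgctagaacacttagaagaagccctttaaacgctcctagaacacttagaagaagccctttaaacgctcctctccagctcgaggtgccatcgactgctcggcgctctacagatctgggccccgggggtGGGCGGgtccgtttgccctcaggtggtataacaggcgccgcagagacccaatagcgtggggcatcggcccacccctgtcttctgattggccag
The letters GGGCGG or CCGCCC occurred in 32.7% of all 32851 promoters of the table, whether or not the gene was expressed. Among the 140 members above the level filter, 102 had a promoter there and 80 of those genes (78.4%) held the letters in any of their promoters. This percentage counts genes and the first counts promoters, so the 2 are not on the same basis. Of the genes with a promoter, all 7 whose level in F KSR2 lay above -0.5 relative to the other KSR lines held the letters. So did 73 of the 95 other genes.

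The maternal share of the chromosome end was near 0 in F KSR2 and close to an even balance in the other KSR lines and in MEFs. Over all members, 535 of 22523 allelic reads were maternal in F KSR2 replicate 1 (2.38%, 95% Wilson interval 2.18% to 2.58%), 621 of 24402 in replicate 2 (2.54%, 2.35% to 2.75%) and 1347 of 20917 in replicate 3 (6.44%, 6.12% to 6.78%). Intervals cover counting error only, because reads are not independent molecules. The mean was 3.79% ± 2.30 (SD, n = 3), whereas Female MEFs, from which the female lines came, lay at 53.9% ± 0.80. M KSR5 lay at 54.5% ± 1.01, M KSR3 at 52.9% ± 0.44 and F KSR4 at 54.3% ± 1.64 (SD, n = 3 each). The 12 libraries of these 4 groups lay between 52.6% and 56.2%, so no library of F KSR2 came near them. TX 2i ESCs lay in between, at 30.3%, 35.0% and 39.8%, but there the imbalance ran over the whole chromosome: their maternal share before the boundary on this chromosome was 31.3%, and F KSR2's was 51.5%.

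**Figure D1:**
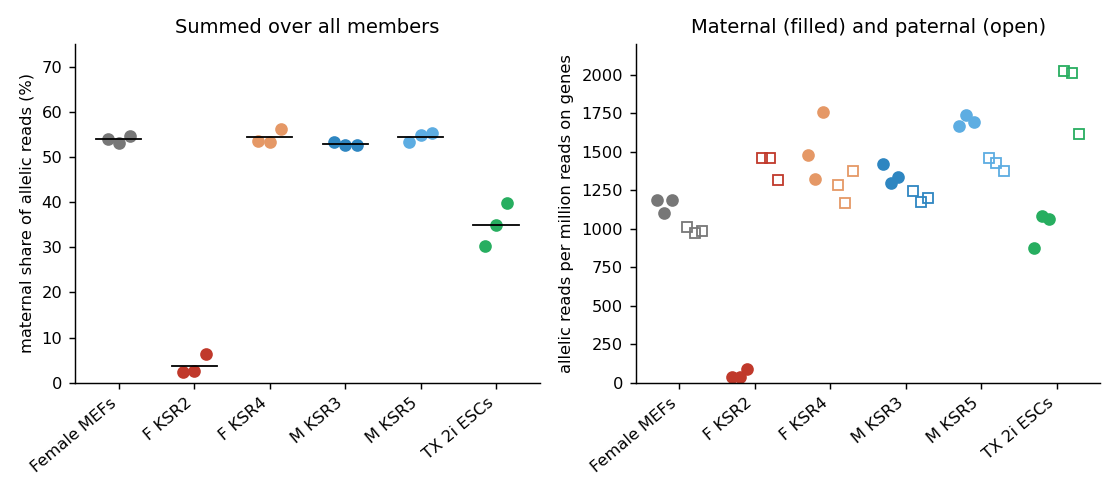
Maternal share of allelic reads (%, left; bars are group means) and maternal (filled) and paternal (open) allelic reads as RPM (right), summed over the 344 genes in each of the 18 libraries. F KSR2 lies at 2.38% to 6.44% maternal, while its paternal reads lie at 1319 to 1459 RPM, within the range of the other KSR lines.

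Replicate 3 of F KSR2 held more maternal reads than replicates 1 and 2. The same library also held more of the minority allele on chromosome 6, which was almost wholly maternal in F KSR2: the paternal share of chromosome 6 was 1.44%, 1.36% and 6.81% in replicates 1, 2 and 3. Its summed fibroblast level was 65.0 RPM against 50.2 and 20.2 RPM in replicates 1 and 2, and no Y-linked read of the 4 genes checked (Ddx3y, Eif2s3y, Kdm5d, Uty) was found in any library of the line. Whether a few cells with both copies gave these reads was not tested. Chromosome 6 of F KSR2 differed from the chromosome 4 end in level, since its 478 genes above the filter lay at a median of 0.16 relative to the other KSR lines.

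Counted by allele, the maternal reads were missing and the paternal reads were at their usual number. The maternal copy gave 35.5, 38.1 and 90.8 RPM in F KSR2, against 1300 to 1759 in the 9 libraries of the other KSR lines, which is 3.59% of their mean. The paternal copy gave 1457, 1459 and 1319 RPM, against 1164 to 1460 in the other KSR lines, which is 109% of their mean. Gene by gene, the paternal level in F KSR2 relative to the other KSR lines had a median of 0.05 on the log2 scale over the 139 members with enough reads (quartiles -0.18 and 0.24). For 9525 other autosomal genes, with chromosome 6 left out, the median was 0.02 (quartiles -0.21 and 0.23). The paternal ratio lay within 0.5 of 0 for 119 members, at -0.5 or less for 9 and at 0.5 or more for 11, where 7.83% of the other autosomal genes also lay.

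The near absence of maternal reads ran through the whole chromosome end. Of the 137 members with at least 20 allelic reads over the 3 F KSR2 libraries, 134 lay below 10% maternal and 27 of these had no maternal read, and the median was 2.70% against 52.0% in the other KSR lines. The 8 highest were Gm13247 (21.7%, 28 of 129 reads), Igsf21 (19.0%, 4 of 21), Padi4 (10.6%, 5 of 47), BC046331 (9.20%, 23 of 250), Klhl17 (8.89%, 4 of 45), Fblim1 (8.16%, 136 of 1666), Errfi1 (7.48%, 11 of 147) and Acot7 (7.07%, 13 of 184). Gm13247, Igsf21, Padi4 and Fblim1 were also biased to the maternal copy in the other KSR lines, at 82.0%, 81.5%, 77.6% and 68.6%, whereas BC046331, Klhl17 and Acot7 lay at 52.0%, 51.1% and 51.0% there and Errfi1 at 42.5%. In each of these members that had a share in the other KSR lines, the share in F KSR2 was the lower.

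The change in share began before the start of the members. A split into 2 levels of the share differences along chromosome 4, over 700 genes with at least 20 allelic reads in each of the 4 KSR lines, fell between Rpl11 (136028265-136053428), a ribosomal protein gene, and E2f2 (136172394-136196057), a cell cycle transcription factor. The mean share difference was -0.33 percentage points before the split and -49.6 percentage points for the 166 genes after it. Tceb3 and Rpl11, the last genes before it, held 46.7% and 59.1% maternal reads in F KSR2, against 49.9% and 60.0% in the other KSR lines. E2f2, Asap3 and Tcea3, the first after it, held 1.83%, 2.31% and 2.02%, against 34.2%, 49.3% and 38.2%. Id3 (136143497-136145755), an inhibitor of DNA binding, lies between Rpl11 and E2f2 and had too few allelic reads in 1 or more lines to enter the split. It held 0 of 24 maternal reads in F KSR2 and 72.3% in the other KSR lines, which places the change between Rpl11 and Id3. The split fell at the same place in each F KSR2 library taken alone, and 1 gene later, before Asap3 at 136206365, when levels were used in place of shares.

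Counted from E2f2, the first gene after the split, 20.3 Mb remain to the end of the chromosome; Id3 and the gap before it are left on the near side of the split in all counts that follow. Of this length, the members cover the last 16.5 Mb. The 3.83 Mb before the members hold 80 genes, and the 32 of them above the filter had a median level difference of -1.05 and a pooled maternal share of 3.82%, so the start of the members is not an edge in the data. Beside it, RP23-334I5.4, Aldh4a1 and Klhdc7a just outside lay at 3.79%, 5.22% and 0% maternal with level differences of -1.30, -1.33 and 0.24, and Igsf21, Arhgef10l and Rcc2 just inside lay at 19.0%, 2.83% and 3.50% with differences of -2.92, -0.92 and -0.86. Klhdc7a (mean below the filter) and Igsf21 had few reads. The 531 genes of chromosome 4 above the filter before the boundary had a median difference of 0.08. At the other end, the last expressed gene of the chromosome, listed as CAAA01066805.1 and lying where the annotation has Noc2l, a repressor of histone acetylation (156236010-156247616), was at 2.52% maternal with a difference of -0.90, so no return to both copies was seen before the end.

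**Figure D2:**
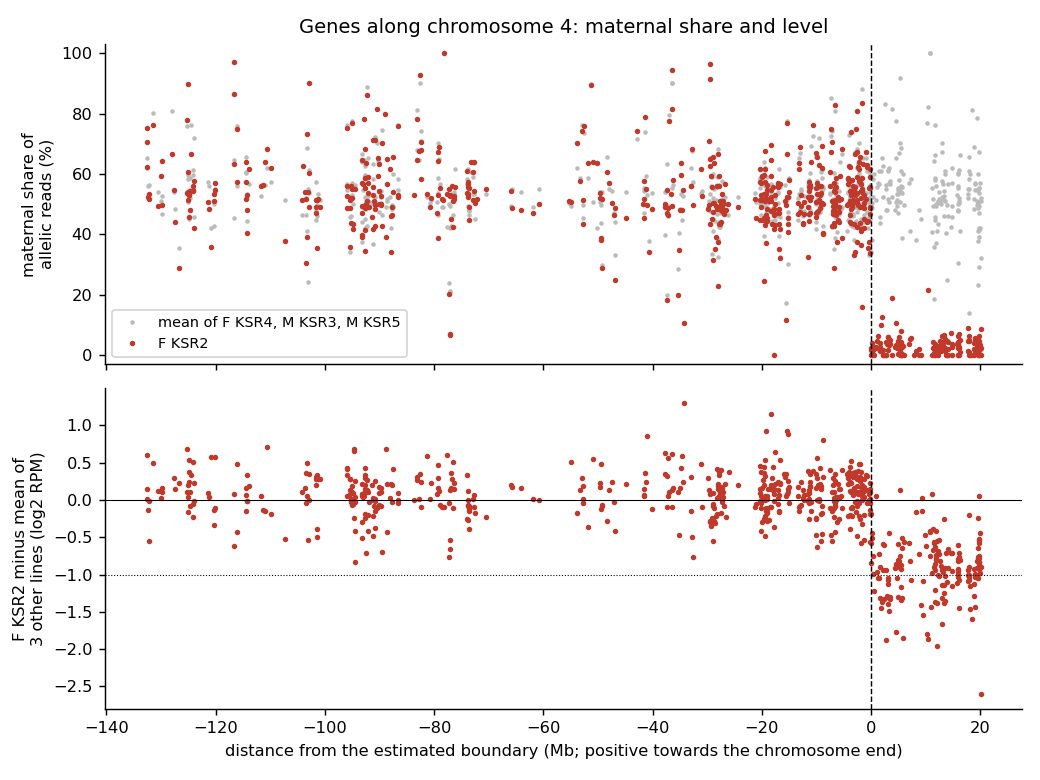
Genes along chromosome 4 by distance from the estimated boundary (Mb): maternal share of allelic reads (%, top) in F KSR2 (red) and the mean of the other KSR lines (grey), and level in F KSR2 minus their mean (log2 RPM, bottom; the dotted line is -1). Shares drop from around 51.5% to near 0 at the boundary and stay there for 20.3 Mb, and the levels drop with them.

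The members were expressed at close to a single-copy level. Relative to the other KSR lines, the 140 members above the filter had a median difference of -0.90 on the log2 scale (53.4% of their level; quartiles -1.08 and -0.71), against 0.02 for 10062 other autosomal genes under the same filter (quartiles -0.18 and 0.22). The median of the same members was -0.82, -0.88 and -0.86 in the 3 F KSR2 libraries and between -0.31 and 0.11 in the 9 libraries of the other KSR lines. Against each line alone it was -0.75 (F KSR4), -0.94 (M KSR3), -1.0 (M KSR5) and -0.89 (TX 2i ESCs). Reads without an informative variant, which do not enter the shares, gave -0.89. All members together took 0.642% to 0.695% of the reads on genes in F KSR2, 1.08% to 1.30% in the other KSR lines and 0.867% to 0.909% in MEFs. In bulk RNA, fewer cells with the transcript and less of it per cell cannot be told apart.

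Of the 140 members, 125 lay at or below -0.5, where 7.57% of all 10601 genes under the filter lay, and 57 had all 3 F KSR2 libraries below all 9 libraries of the other KSR lines, against a background of 1.38%. No member lay above all 9 (background 1.89%). These counts describe a contrast that chose the members. Without F KSR4 replicate 2, 76 members lay below all remaining libraries. Along the segment the median difference was -0.88 for members starting in the 4 Mb from 140 Mb, -0.73 from 144 Mb, -0.94 from 148 Mb, -0.92 from 152 Mb and -0.94 from 156 Mb, and the maternal share of these windows lay between 2.43% and 4.39%. The window from 144 Mb, with the highest median, holds the zinc finger cluster.

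**Figure D3:**
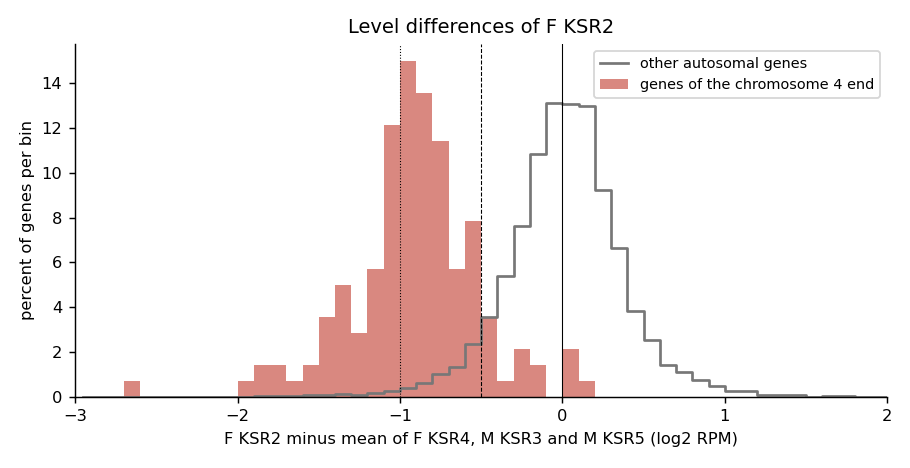
Level in F KSR2 minus the mean of F KSR4, M KSR3 and M KSR5 (log2 RPM, bins of 0.1) as percent of genes, for the 140 members above the filter (red) and 10062 other autosomal genes (grey line). The members centre on -0.90 and the others on 0.02, and the dashed line at -0.5 parts 125 members from 15.

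Metabolic and mitochondrial genes lay near the level of the members as a whole. Of all 140 members above the filter, 125 lay at or below -0.5 and the median was -0.90. The lists that follow are to be read beside these values. Of 19 members in this group, 18 passed the filter, with a median difference of -0.93, and 16 of them lay at or below -0.5. Pgd, an enzyme of the pentose phosphate pathway that yields NADPH, was at 5.55, 5.56 and 5.31 log2 RPM in F KSR2 and at 5.51, 7.26 and 7.68 (lowest, median, highest) in the other KSR lines. The lowest of these was F KSR4 replicate 2, the only library that overlapped, and the difference was -1.67 with it and -1.89 without it. Srm, which makes spermidine, was at 7.02, 7.30 and 6.77 against 7.43, 7.89 and 9.07, a difference of -1.02 without overlap. Sdhb, the iron-sulfur subunit of succinate dehydrogenase, was at 4.83, 5.17 and 5.52 against 5.89, 6.04 and 6.84, also without overlap. Eno1, the glycolytic enolase and the member with the most reads, was at 9.19, 9.99 and 9.67 against 9.41, 10.60 and 11. Its difference of -0.66 had overlapping groups, with all 3 M KSR3 libraries and F KSR4 replicate 2 in the range of F KSR2, and its maternal share was 4.58% over 14379 reads. Near-identical copies of Eno1 make its counts uncertain. Park7, a redox sensor, lay at 6.64, 6.90 and 6.91 against 6.56, 7.86 and 8.42, a difference of -0.95.

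Genes of cell death and the cell cycle had 11 members, all above the filter, with a median of -0.86, and 10 at or below -0.5. Rcc2, a regulator of chromosome condensation, was at 8.69, 8.45 and 8.51 against 9.17, 9.39 and 9.68, below every other KSR library. Cdk11b, a cyclin-dependent kinase, was at 6.39, 6.29 and 6.20 against 6.89, 7.25 and 7.46. Fbxo42, an F-box protein, was at 5.24, 5.28 and 5.21 against 5.68, 6.05 and 6.35. Both lay below all 9 libraries. Miip was at 4.53, 4.04 and 3.40 against 4.41, 5.28 and 5.56, and Casp9, the initiator caspase of the mitochondrial death pathway, at 2.65, 2.97 and 2.70 against 2.57, 3.44 and 3.90. These groups overlapped.

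Signalling genes (12 of 13 members above the filter, median -0.91) had 11 at or below -0.5. Gnb1, a beta subunit of G proteins, was at 7.28, 7.49 and 7.65 against 8.02, 8.40 and 8.70, and Ski, a repressor of TGF-beta signalling, at 5.95, 6.04 and 5.96 against 6.61, 7.02 and 7.34. Neither overlapped with the other KSR lines. Epha2, an ephrin receptor, had a wide spread, at 6.82, 5.56 and 6.53 against 6.12, 7.18 and 8.35. Agrn, the proteoglycan agrin, was at 7.48, 6.69 and 7.13 against 6.78, 7.63 and 8.09, a difference of -0.44. Mtor lay at 5.71, 5.47 and 5.23 against 5.56, 6.15 and 6.61, a difference of -0.69 with overlap.

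All 10 members for RNA and ribosome function lay at or below -0.5, with a median of -0.89. Rpl22, a ribosomal protein, was at 7.60, 7.97 and 8.16 against 8.46, 8.82 and 9.83, without overlap. Tardbp, an RNA-binding protein that regulates its own mRNA, was at 8.32, 8.65 and 8.16 against 8.43, 8.96 and 9.23. Its difference of -0.54 was smaller than that of Nol9 (-0.93) and Exosc10 (-0.72), a subunit of the RNA exosome. The 15 genes of the vacuole and trafficking group above the filter (of 17) all lay at or below -0.5 too, with a median of -0.96. Among them, Ube4b was at 6.03, 6.37 and 6.09 against 6.81, 7.04 and 7.69, Clstn1 at -1.14, Dnajc11 at -1.12 and Sdf4 at -0.75. Ube4b, Clstn1 and Sdf4 were without overlap.

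Transcription and chromatin genes (13 of 17 members above the filter) had the broadest range, from -2.60 (Klhl17, an actin-binding Kelch protein placed in this list) to 0.13 (Spen), with a median of -0.79 and 12 at or below -0.5. Rere was at 6.14, 5.55 and 4.98 against 6.06, 6.33 and 6.86. Prdm2 and Phf13 lay at -0.57 and -0.60 with overlapping groups. Of the small families, 1 of 7 TNF receptor members passed the filter (Tnfrsf1b, -1.41), 1 of 5 Padi members (Padi4, -1.77), 2 of 4 Pramef members (Pramef12, -0.17; Pramef8, -1.07) and all 4 of the Zfp and Rex2 genes (Zfp534, -0.90; Zfp933, -0.86; Zfp600, -0.62; Rex2, -0.43).

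Partners in the same complexes that lie on other chromosomes lay closer to the other lines. Sdhb lay at -1.04, while Sdha, Sdhc and Sdhd on chromosomes 13, 1 and 9 lay at 0.15, -0.33 and -0.21. Mtor lay at -0.69, and its partners Rptor, Mlst8 and Rictor at -0.09, -0.15 and 0.10. Gnb1 lay at -0.91 and its relative Gnb2 at -0.04. For none of these 7 genes did F KSR2 lie below all 9 libraries of the other KSR lines. Only 1.38% of all 10601 genes under the filter did, so this count does not set the 7 genes apart.

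The genes that were not at a halved level were few. Of the 140 members, 15 lay above -0.5 (background 92.4%) and 4 of these at or above 0 (background 53.7%). Among the 15 were Spen (0.13), Gm13151 (0.09), Acap3 (0.06), Gm13225 (0.02), Gm13227 (-0.15), Pramef12 (-0.17), Trp73 (-0.20), Mib2 (-0.25), Nmnat1 (-0.26), Gm13152 (-0.39), Gm13150 (-0.42), Rex2 (-0.43), Agrn (-0.44) and Gm13051 (-0.48). The count depended on the libraries, with 25 without F KSR2 replicate 3 and 23 without replicate 2. Of the 15, 5 had fewer than 20 allelic reads in F KSR2, which is too few to give a share. In the others, the highest maternal share was 4.55% (Gm13152, 1 of 22 reads).

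Those named fell into 3 kinds by parental balance and position. In the first, the balance in the other KSR lines was tilted to the paternal copy, at 42.1% maternal or less. This limit is the share of Agrn, the highest of those named here, and was set after the values were seen. Such a tilt was not particular to these genes. The 9 members at 40% maternal or less, among those with at least 90 allelic reads in the other KSR lines, had a median difference of -0.51. Trp73 was at 12.9% maternal in M KSR5, 7.05% in M KSR3 and 22.1% in F KSR4, and at 4.51, 4.91 and 5.05 log2 RPM in F KSR2 against 4.41, 4.98 and 5.49 in these lines. Its paternal level in F KSR2 was 0.97 times that of the other KSR lines. Acap3, a GTPase-activating protein of Arf6, was at 28.2% to 30.1% maternal in the other KSR lines and at 4.20, 3.42 and 3.92 log2 RPM against 1.93, 3.95 and 4.37. The lowest value was again F KSR4 replicate 2, and the paternal level in F KSR2 was 1.45 times that of the other KSR lines. Mib2, a ubiquitin ligase of Notch signalling, was at 37.7% maternal, Pramef12 at 38.3% and Agrn at 42.1%.

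In the second kind, both copies were used to a similar degree in the other KSR lines and the paternal reads were higher in F KSR2. Spen and Nmnat1 are among the 11 members with a paternal ratio of 0.5 or more, a count close to the background of 7.83%. Acap3 of the first kind is among these 11 too, so raised paternal reads were not particular to the second kind. Spen, a large RNA-binding repressor needed for gene silencing on the inactive X chromosome, was at 7.45, 5.95 and 7.06 log2 RPM in F KSR2 and at 5.77, 6.58 and 7.71 in the other KSR lines. The groups overlapped fully, and the 3 F KSR2 libraries differed by 1.50 from lowest to highest. Spen was at 53.3% to 55.0% maternal in the other KSR lines, and 29 of 1058 reads were maternal in F KSR2, so that its paternal level was 2.53 times theirs, the highest ratio of the 139 members. Nmnat1, an enzyme of NAD synthesis, was at 46.0% maternal, with a paternal level of 1.61 times that of the other KSR lines and overlapping groups.

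The third kind lies in the zinc finger cluster (145410245-147848366), whose genes are near-identical copies, so that reads can be assigned to the wrong one. Of its 20 genes above the filter, 7 lay above -0.5, and the median of the cluster was -0.65. Of the 20, 12 had fewer than 20 allelic reads in F KSR2, among them 5 of the 7. Rex2 and Zfp600 had 1 and 7 allelic reads in F KSR2, all maternal, and their allelic reads were all maternal in the other KSR lines too. Without the cluster, 8 of 120 members lay above -0.5 and the median was -0.92.

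At the other extreme, 9 members lay at or below -1.5. Klhl17, the last expressed gene but one, was at 1.80, -0.90 and 1.01 log2 RPM in F KSR2 against 2.16, 3.33 and 3.66, a difference of -2.60 (SD of the F KSR2 libraries 1.39). It was at 51.1% maternal in the other KSR lines, and its paternal level in F KSR2 was 0.32 times theirs. Its neighbour CAAA01066805.1, which starts beside it on the other strand, was at 6.82, 6.70 and 6.48 against 7.13, 7.58 and 7.92. Fbxo2, an F-box protein that binds glycoproteins, was at 0.93, 0.95 and 1.28 against 1.70, 3.0 and 4.39, and Tmem51 at 2.28, 2.06 and 2.62 against 2.96, 4.12 and 4.98. Both lay below all 9 libraries, but TX 2i ESCs held Fbxo2 at 0.67, lower than F KSR2. Gm13251, Gm13110 and Gm13212 lay at -1.80, -1.60 and -1.55, and Arhgef16 followed at -1.46. Padi4, which converts arginine to citrulline in histones, was at -0.35, 1.76 and 1.17 against 2.27, 2.57 and 3.11, and Gm13247 at 3.94, 3.17 and 3.29 against 4.37, 5.29 and 6.04. Padi4 and Gm13247 were at 77.6% and 82.0% maternal in the other KSR lines, and their paternal levels in F KSR2 were 1.37 and 1.05 times theirs.

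**Figure D4:**
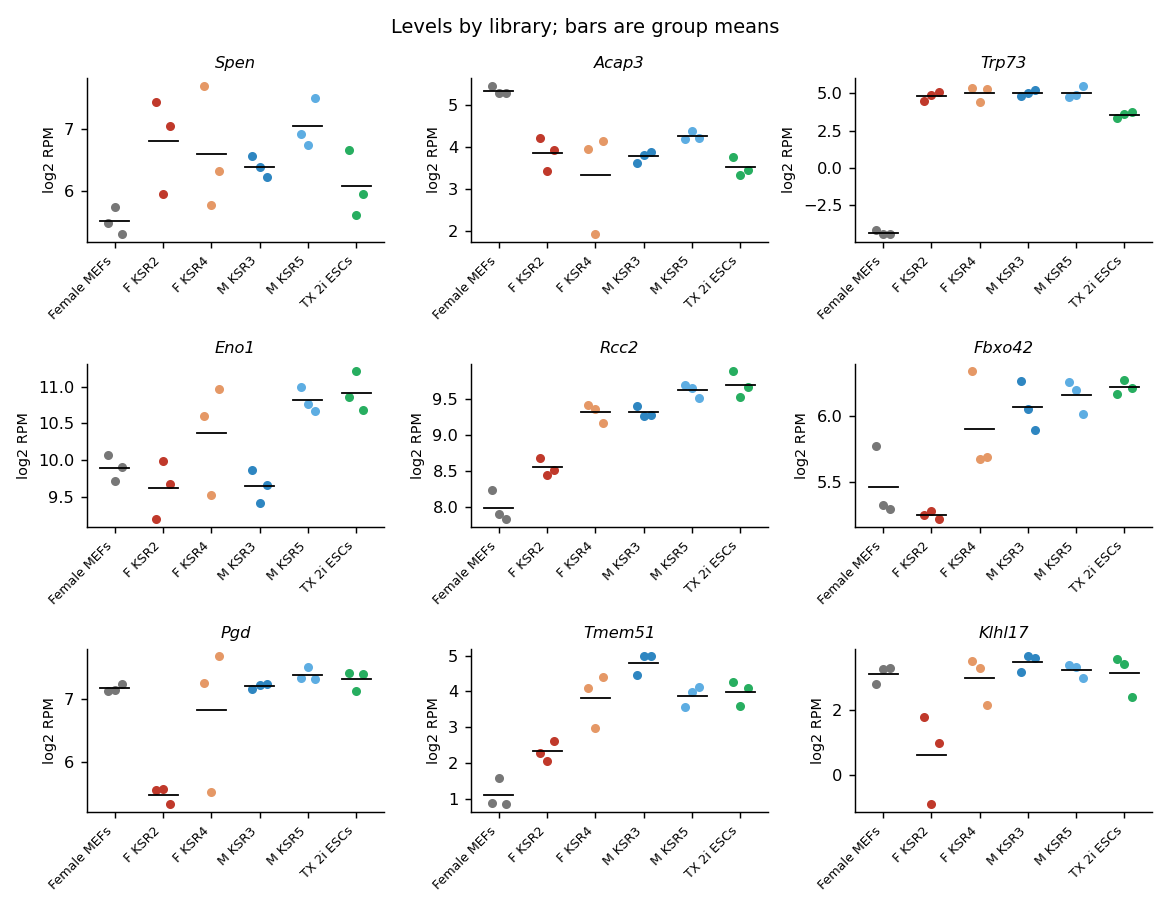
Level (log2 RPM) of 9 members in every library of the 6 groups; dots are libraries and bars group means. Rcc2 and Fbxo42 lie lower in all 3 F KSR2 libraries than in any other KSR library, Spen, Acap3 and Trp73 overlap with the other KSR lines, and F KSR4 replicate 2 is low for Acap3 and Pgd.

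Across members, the level difference in F KSR2 went with the parental balance in the other KSR lines, where both copies were read. If only the paternal copy is read, whether the other is missing or silent, and it is used as before, the difference equals log2 of the paternal share. Over 127 members with at least 90 allelic reads in the 9 other libraries, Pearson's r between this value and the observed difference was 0.52 and Spearman's rho 0.51. Both share the reference libraries, and members are genes and not replicates, so the correlation is given as a description. With shares taken from MEFs, which are not part of the difference, r was 0.43 and rho 0.36 over 97 members. The 9 members at 40% maternal or less had a median of -0.51 (70.0% of the other KSR lines), the 97 members between 40% and 60% had -0.90 (53.6%) and the 21 members at 60% or more had -1.12 (46.0%). The median values from the shares were -0.64, -1.04 and -1.59, and the members at 60% or more lay farthest above theirs.

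**Figure D5:**
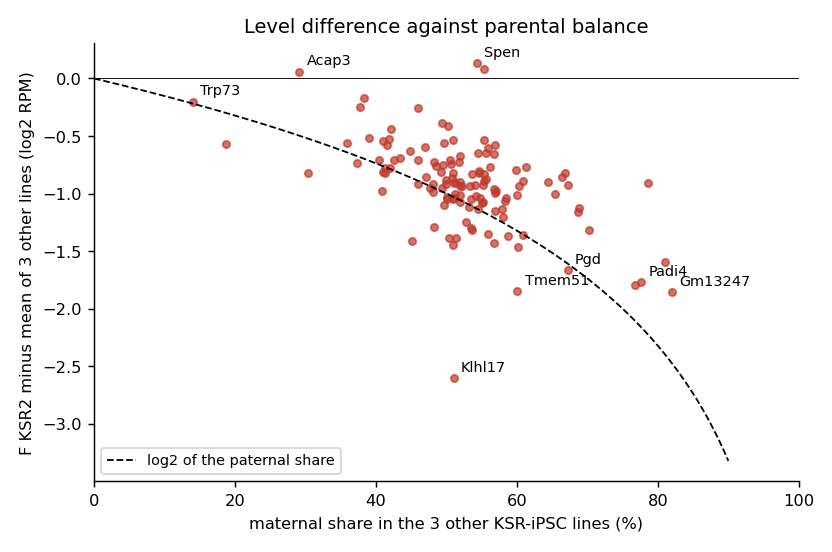
Level in F KSR2 minus the mean of the other KSR lines (log2 RPM) against the maternal share (%) in those lines, for 127 members; the dashed line is log2 of the paternal share. Members spread around the line, with Klhl17 at -2.60 farthest below it and Spen, at 0.13, the highest on the level axis.

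The same genes were also compared in 3 ways that leave F KSR2 out, among libraries in which both copies were read. limma was fitted to 14528 genes over the 15 other libraries, with Benjamini-Hochberg adjustment over all of them, and 198 members were tested. The p-values rest on libraries of single lines and measure the spread between the libraries within each line or group. The spread between lines does not enter their error.

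The first set the pluripotent lines F KSR4, M KSR3, M KSR5 and TX 2i ESCs, of which the last were not made by reprogramming, against MEFs. M KSR3 and M KSR5 are male and the MEFs female, so sex is not balanced in this contrast. Of 198 members, 107 were higher in the pluripotent lines (54.0%, background 41.3%), 41 were lower (20.7%, background 32.2%) and 50 did not pass, with a median difference of 0.59 against 0.20 over all genes. The 4 largest differences upward without overlap were of genes in the zinc finger cluster. Gm13154 was at 5.11 to 7.01 log2 RPM in the pluripotent libraries and at -4.40 to -4.19 in MEFs, which is a level of 0 to 1 read, so no fold is given. Gm13151 (4.67 to 6.48 against -4.45 to -4.19), Gm13247 (4.37 to 6.04 against -4.45 to -4.19) and Zfp534 (4.67 to 6.34 against -4.40 to -2.71) were likewise at a few reads at most in MEFs. All 4 passed the filter of the test only through the pluripotent libraries, where they were high. Their calls are therefore given as a description, and Zfp534 also enters the count of Zfp and Rex2 genes below. All 4 Padi members tested, all 3 Pramef members tested, 8 of 11 cell death and cell cycle genes and 7 of 10 RNA and ribosome genes were higher, while of the metabolic genes 6 of 19 were higher and 3 lower. Pramef17, counted among the Pramef members, passed the filter only through the TX 2i ESC libraries, where it was high. Its call is therefore a description and not a trait shown in the KSR lines.

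The 4 largest differences downward without overlap were of Angptl7, Gpr153, Mxra8 and Hspb7. Mxra8, a matrix remodelling protein, was at 0.21 to 2.90 log2 RPM in the pluripotent lines and at 7.55 to 7.67 in MEFs, a difference of -6.38 ± 0.39 (SE; limma adjusted p = 1.0e-09). Gpr153, an orphan receptor, was at -4.13 to 1.70 against 6.35 to 6.39, a difference of -6.87 ± 0.53 (limma adjusted p = 1.4e-08). Hspb7, a small heat shock protein, was at -4.44 to -0.41 against 2.90 to 3.21, and Angptl7, a secreted angiopoietin-like protein, at -4.44 to -4.04 against 1.92 to 3.61. Hspb7 and Angptl7 passed the filter of the test only through the MEF libraries, where they were high, so their calls are given as a description. Of the other lists, 7 of 13 signalling genes were higher and 6 lower, 5 of 14 transcription and chromatin genes were higher and none lower, 6 of 17 vacuole and trafficking genes differed each way, and 3 of 4 Zfp and Rex2 genes and 1 of 3 TNF receptor members were higher.

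The second set the same 3 KSR lines against TX 2i ESCs. The TX 2i ESCs differ from the KSR lines in medium, in origin and in the parental balance of chromosome 4. They are also female, whereas M KSR3 and M KSR5 are male. These differences cannot be told apart. Of 198 members, 25 were higher in the KSR lines (12.6%, background 10.9%) and 11 lower (5.56%, background 12%), and the median difference was 0.02. Mfap2, a microfibril protein, was at -1.29 to 2.18 log2 RPM in the KSR lines and at -4.38 to -2.39 in TX 2i ESCs (limma adjusted p = 3.8e-05). Agmat, an agmatine hydrolase, was at -1.96 to 0.57 against -4.38 to -4.13, and Plch2, a phospholipase C, at -0.08 to 1.51 against -4.16 to -0.52. The lowest values are 0 reads or a few, so the size of these differences depends on the scale: on log2(RPM + 1) they were 1.32 for Mfap2, 0.93 for Agmat and 1.07 for Plch2. Dhrs3, a retinaldehyde reductase, was read in every library and differed by 2.37 ± 0.37. Among the lower, Pramef17 was at -4.26 to -0.43 against 2.91 to 3.37, Gm694 at -4.33 to -1.48 against 1.45 to 3.6 and Gm13128 at -2.57 to 0.22 against 3.35 to 4.11. On log2(RPM + 1) these differences were -2.92, -2.82 and -3.35. Pramef17 and Gm694 passed the filter of the test only through the TX 2i ESC libraries, where they were high. Agmat passed it only through KSR libraries, where it was high. The calls of these genes are therefore given as a description, and Pramef17 and Agmat also enter the counts by list below. Crocc, the rootletin of the ciliary base, differed by -1.20 ± 0.23. By list, 4 of 11 cell death and cell cycle genes were higher and 1 lower, 4 of 13 signalling genes were higher and 2 lower, 3 of 19 metabolic and 3 of 14 transcription and chromatin genes were higher, and 2 of 3 Pramef members, 1 of 3 TNF receptor members and 1 of 17 vacuole and trafficking genes were lower. None of the 10 RNA and ribosome genes, the 4 Padi members or the 4 Zfp and Rex2 genes passed. Leaving out 1 library gave 24 to 50 members in place of 36: 24 without TX 2i ESCs replicate 1 or 3 and 50 without F KSR4 replicate 2. The lower calls alone were 3 without TX 2i ESCs replicate 2, 6 and 7 without its replicates 1 and 3, and 19 without F KSR4 replicate 2, in place of 11.

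The last set F KSR4 against both male lines, a contrast of a single female clone with 2 male clones. The female and male lines came from different embryos, so sex, donor embryo and clone cannot be told apart. Of 198 members, 1 was higher (Plekhg5) and 13 were lower in F KSR4 (6.57%, background 5.75%; for higher calls 0.505%, background 2.62%), and the medians of members and of all genes were -0.21 and -0.17. Fbxo2 was at 1.70 to 2.23 log2 RPM in F KSR4 and at 2.80 to 4.39 in the male lines, a difference of -1.67 ± 0.29 (limma adjusted p = 0.0048). Nphp4, a protein of the primary cilium, differed by -1.34 ± 0.28, 2010015L04Rik by -1.89 ± 0.38 and Car6, a secreted carbonic anhydrase, by -2.77 ± 0.75. The call of Car6 was lost under many settings. It did not pass without F KSR4 replicate 2, where the difference was -1.43 (limma adjusted p = 0.10), without any single M KSR3 library or M KSR5 replicate 1 or 2 (limma adjusted p = 0.057 to 0.074), with no filter (0.081) or with only the libraries of the contrast (0.098). Among the lists, 2 of 19 metabolic genes, 2 of 17 vacuole and trafficking genes, 1 of 13 signalling genes and 1 of 10 RNA and ribosome genes were lower, and no other list had a call. The count ranged from 5 (without M KSR3 replicate 2 or 3) to 35 (without F KSR4 replicate 1), with 6 without M KSR5 replicate 1 and 8 without M KSR3 replicate 1 or M KSR5 replicate 2.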

How the data were processed

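RNA-seq libraries were made from polyadenylated RNA of 6 groups with 3 libraries each; 82 further samples of the series (targeted methylation sequencing) are not used here. Per the labels, reads were trimmed with Trim Galore 0.6.1 and mapped with HISAT2 2.1.0 to GRCm38; reads were assigned to BL6 or CAST by their variants and counted over genes by the authors, and the deposited values are log2 RPM, separately for all, maternal, paternal and unassigned reads. The labels and the methods disagree on the read layout. Genes without reads are held at 0.9 reads in the deposited log2 values. Reads were recovered from the steps of the values (99.96% to 100% whole within 0.05 reads). The genes' ID column repeats IDs, so symbols and coordinates were used; synonyms came from RefSeq. Members, gene lists and tests were chosen with earlier results of these data known.

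Levels are group means of the deposited log2 values. A maternal share is maternal reads over allelic reads. limma 3.58.1 in R 4.3.3 (trend, genes above 0 in at least 3 of 15 libraries, adjusted p below 0.05) tested the comparisons without F KSR2, and was tested on simulated reads, as was the split along the chromosome; Python 3.11.15 with pandas 2.3.3 did the rest. The rule for named genes took the genes beside the boundary and the members' start, the 10 highest and 10 lowest differences in F KSR2, the 8 highest maternal shares, up to 4 genes of highest level per list, the 4 largest non-overlapping changes each way per test, 7 partner genes and the last expressed gene; Sdhb, Mtor, Casp9, Plekhg5 and the members above -0.5 beyond the 10 highest were named after their values were seen. Libraries of a line were labelled biological triplicates. Whether same-numbered libraries were paired was looked at without F KSR2 and was not settled: 8 of 30 correlations of their deviations were over 0.1 (range -0.15 to 0.38). The main fits used no pairing. Replicates differed by more than sampling noise. The median squared difference of a pair was 24.3 to 35.8 times that noise in F KSR4 and 1.35 to 12.6 times in the other groups. Alternatives covered filters, scaling, the reference lines, a pseudocount, limma-voom and leaving out libraries. A gene that is counted among the members is not reported here by name.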

Additional observations from a re-analysis of the deposited data

How the results depend on the processing

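The median level of the members in F KSR2 stayed between -1.0 and -0.75 under every alternative run. It was -0.87 with a filter of a mean above 4, -0.87 with TX 2i ESCs added to the reference, -0.75, -0.94 and -1.0 against F KSR4, M KSR3 and M KSR5 alone, -0.85 with log2(RPM + 1), and -0.91 to -0.87 when 1 library was left out. The 15 members above -0.5 became 38, 27 and 30 against F KSR4, M KSR3 and TX 2i ESCs alone, 14 to 25 without 1 library and 8 without the zinc finger cluster, an alternative chosen after seeing the data. The 57 members below all 9 libraries became 113, 114 and 101 against M KSR3, M KSR5 and TX 2i ESCs alone, where fewer libraries are compared, and 57 to 76 without 1 library. The maternal share lay between 2.46% and 4.49% without 1 F KSR2 library, the paternal ratio between -0.01 and 0.10, and the maternal ratio between -6.21 (without replicate 3) and -4.89. The boundary at 136172394 moved to 136206365 with levels. Members called without 1 library were 130 to 154 (148 with all) against MEFs, 24 to 50 against TX 2i ESCs and 5 to 35 between F KSR4 and the male lines. The last was 9 with no filter and 4 with only the libraries of the contrast, and the cause was not tested. With the replicate number as a block (replicate block), the counts were 146, 33 and 19 against 148, 36 and 14. Whether the numbers mark a pairing was not settled. Of 859 values of single named genes under alternatives, 33 moved by more than the spread of F KSR2. A change of sign was scored only for the limma values, and none of those reversed. Among them 9, all of Car6, no longer passed. Genes that fell below the filter under an alternative had no value there and are not in these counts. Angptl7 and Hspb7 were not tested without any 1 MEF library, nor Gm694 and Pramef17 without any 1 TX 2i ESC library. Agmat was not tested without some of the KSR libraries. Depth limits the shares of genes with few variant reads and of the zinc finger copies.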
